A study of Mus musculus with 18 samples.

Results

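CD8+ T cells and CD4+ T helper cells that had been sorted from MC38 tumours were compared after the same treatment, an anti-PD-1 antibody together with D18. The comparison takes 6 of the series' 18 libraries, chosen by sort and treatment in their labels, with 3 libraries of the CD8 sort and 3 of the CD4 sort. MC38 is a mouse colon adenocarcinoma line. It was grown under the skin of C57BL/6 females that were 6 weeks old at injection, and was treated from the time when tumours averaged 100 mm3. Every mouse behind these 6 libraries received 200 µg of anti-PD-1 antibody 2 times a week and 25 µg of D18 1 time a week, for 2 weeks. D18 is a code name and the labels do not say what the agent is. The other 12 libraries are the same T cell sorts with anti-PD-1 alone, 3 of each, and the dendritic cell (DC) sort under both treatments. Untreated mice are not among them, and both agents are shared by both sides of the comparison. Mice were pooled before they were divided into groups, and the labels do not tie the 3 libraries of a group to separate animals, so p-values below measure only the spread between these samples.

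T cells carry a receptor for peptides held by major histocompatibility complex (MHC) molecules, together with 1 of a pair of coreceptors that divides them into classes. CD8, a dimer of the products of Cd8a and Cd8b1, binds MHC class I, and cells that carry it kill target cells with granules of perforin and granzymes. CD4 binds MHC class II, and the cells that carry it act as helpers or, where they express Foxp3, as regulatory T cells, which in tumours are known for high levels of CTLA-4, the interleukin-2 receptor alpha chain and the costimulatory receptors OX40 and GITR. Anti-PD-1 antibodies block an inhibitory receptor of activated T cells of both classes.

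Reads per gene were recovered from the deposited log2 values, and the libraries were shallow. The CD8 libraries numbered 1, 2 and 3 held 55823, 266392 and 77993 reads and the CD4 libraries 59505, 31156 and 137295. Below, 3 values in a row are always the libraries numbered 1, 2 and 3, in that order. A gene without a read can still have had up to 3 reads at 95% confidence, a limit that covers counting error only, since these libraries carry no molecular identifiers. The coreceptors check the labels and are no finding, because the sorts are named for them. Cd8a had 58, 585 and 28 reads in the CD8 libraries and 0, 0 and 83 in the CD4 libraries, and Cd8b1 had 83, 388 and 33 and 0, 0 and 90. Cd4 had 0, 0 and 1 reads in the CD8 libraries and 16, 10 and 2 in the CD4 libraries. The libraries numbered 1 and 2 thus matched their labels, with no read of the other class's coreceptor. The library labelled CD4 D18 replicate 3 did not, as it held more Cd8a reads than the library labelled CD8 D18 replicate 3 and 2 Cd4 reads. Cd8a stood at 1039, 2196 and 359 CPM (reads of a gene per 1000000 reads of its library) in the CD8 libraries and 0, 0 and 605 in the CD4 libraries. Cd3e, a chain of the T cell receptor complex and a marker of any T cell, was read in all 6, with 37, 209 and 19 reads in the CD8 libraries and 23, 10 and 41 in the CD4 libraries.

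**Figure D1:**
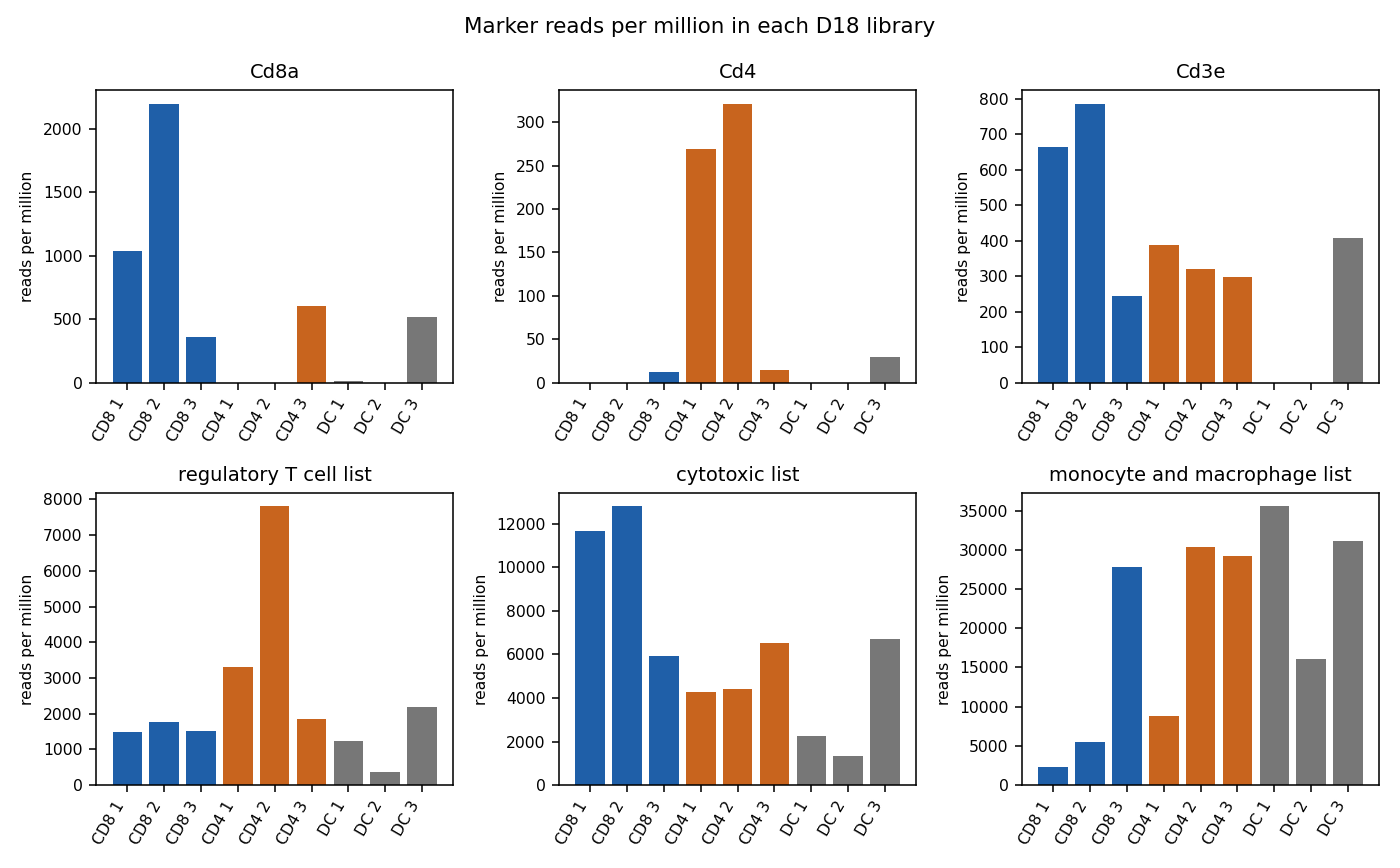
CPM (vertical axes, from 0) of Cd8a, Cd4, Cd3e and the summed CPM of 3 gene lists in each of the 9 D18 libraries, 1 bar a library, with the CD8 sort in blue, the CD4 sort in orange and the dendritic cell sort in grey. Cd8a is at 0 in the CD4 libraries numbered 1 and 2 and at 605 in the CD4 library numbered 3, and the DC library numbered 3 also shows Cd8a and Cd3e.

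The libraries numbered 3 stood close to each other. Across the 1045 genes tested, their normalised levels had a Spearman correlation of 0.872, against 0.146 to 0.630 for the other 14 pairs of these libraries. A chi-square test of 2 libraries' reads over genes with at least 5 expected reads gives 1 per degree of freedom where libraries differ by sampling alone. It gave 1.60 for the CD8 and CD4 libraries numbered 3, 1.21 for the CD4 and DC libraries numbered 3 and 2.09 for the CD8 and DC libraries numbered 3, and 5.68 to 99.5 for the other 33 pairs of D18 libraries. The statistic grows with depth, and in all 3 pairs it lay above 1 (the largest p of the chi-square test, which compares these libraries and not the sorts, was 6.28e-16). The test takes reads as independent, which libraries without molecular identifiers do not ensure. It therefore cannot decide whether these libraries were made from separate material. They were kept as separate samples because they are labelled so. The DC library numbered 3 held 87 Cd8a reads and 69 Cd3e reads, where the DC libraries numbered 1 and 2 held 3 and 0 of Cd8a and no Cd3e read. The differences between the sorts are therefore given with all 6 libraries and without both libraries numbered 3, and the cause of the likeness was not tested.

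**Figure D2:**
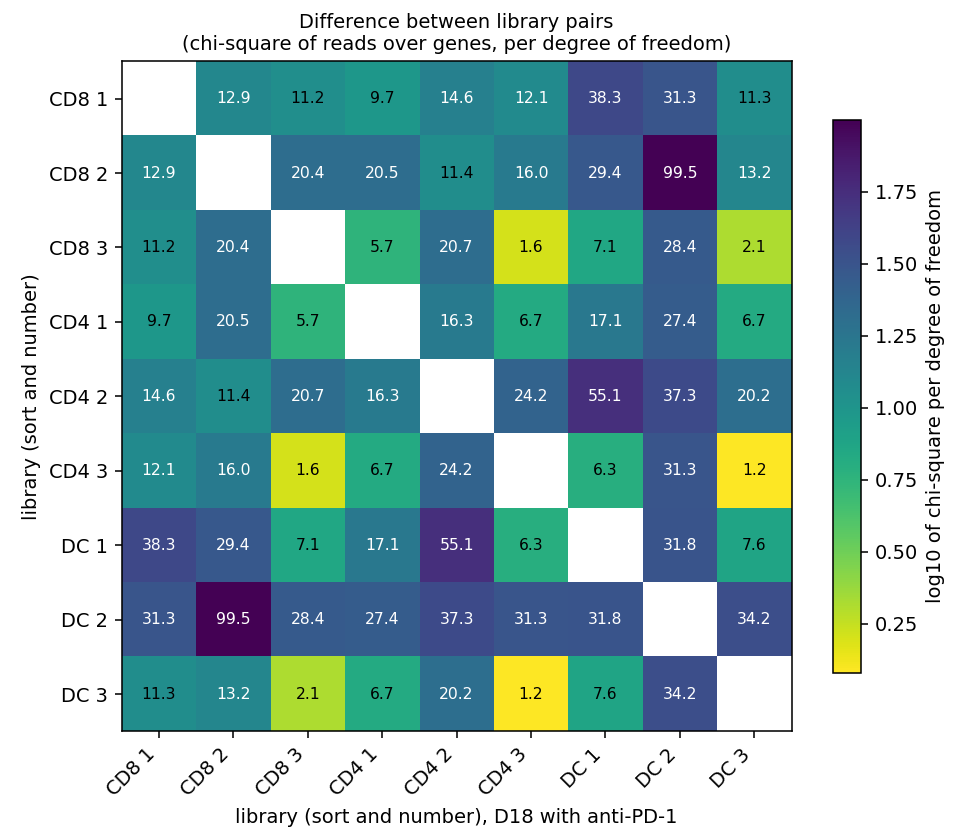
Chi-square of the reads of 2 libraries over genes, per degree of freedom, for all pairs of the 9 D18 libraries (sort and number on both axes, colour on a log10 scale, the value printed in each cell). The 3 pairs among the libraries numbered 3 lie between 1.2 and 2.1, and no other pair is below 5.68.

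In the libraries numbered 1 and 2, which matched their labels, genes of killer cells had higher levels in the CD8 sort, among them Gzma, Nkg7, Klrk1 and Ccl5. The costimulatory receptor genes Tnfrsf4, Tnfrsf18 and Icos, and genes of macrophages, had higher levels in the CD4 sort. In the libraries numbered 3 the 7 named genes differed by less than 1 on the log2 scale. Over the 6 libraries together, 0 of 1045 genes (0.0%) differed between the sorts at an adjusted p under 0.05 by limma, and the smallest adjusted p was 0.961, for Tnfrsf4. At an unadjusted p under 0.05 limma gave 11 genes (1.05%), 8 higher in the CD8 sort and 3 higher in the CD4 sort. With limma-voom, 0 genes passed and 45 had an unadjusted p under 0.05. Same-numbered libraries deviated together from their group means, and 0 genes passed when that number entered as a block (smallest adjusted p by limma 0.584) and 83 genes (7.94%) had an unadjusted p under 0.05, 50 of them higher in the CD8 sort. Without the library labelled CD4 D18 replicate 3, Cd8a and Cd8b1 passed, 2 of 980 genes (0.204%). That library held all reads of both genes in the CD4 sort, so these 2 calls follow from leaving it out and are no finding. Without both libraries numbered 3, 0 of 1023 genes passed (smallest adjusted p by limma 0.0907, for Cd8a) and 42 (4.11%) had an unadjusted p under 0.05. With no filter on low values 3 of 10371 genes passed by limma with all 6 libraries. They were Gzma (adjusted p 0.00477), Tnfrsf4 (adjusted p 0.00578) and Jaml (adjusted p 0.0396). For Gzma and Tnfrsf4 the differences were those of the filtered fit, and only the standard errors were smaller (0.71 and 0.60). The change thus lies in the estimated spread and not in the levels. Cd8a, with a larger difference of 4.29, had an adjusted p of 0.932 by limma there. In 37 genes (3.54%) all 3 CD8 libraries lay above all 3 CD4 libraries, and in 19 genes (1.82%) all 3 lay below. Over all genes tested, 620 of 1045 had the higher mean in the CD8 sort and the median log2 difference was 0.14. Quantile normalisation moved that median to 0.015 and voom to 0.25, so a gene list's median is to be read against 0.14. No gene named below passed with all 6 libraries and the filter, so the differences that follow are values, given as log2(normalised reads + 1), CD8 minus CD4, ± standard error with 3 libraries a sort. In square brackets stands the difference without both libraries numbered 3, with 2 libraries a sort, for genes that still averaged 10 normalised reads, and likewise the count of genes and the median of a list. The median over all 1023 genes tested was then 0.24.

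Genes of the killing machinery had higher means in the CD8 sort. Of the cytotoxic granule and effector cytokine list, 9 of 10 [9 of 10] genes tested had the higher mean in CD8, with a median log2 difference of 0.98 [1.56]. The list's median was 1.55, 1.35 and -0.020 within the libraries numbered 1, 2 and 3. Gzma, which encodes the serine protease granzyme A, led the list with 17, 350 and 28 reads in the CD8 libraries and 0, 0 and 38 in the CD4 libraries. Every CD8 library thus held Gzma reads, while of the CD4 libraries only the one numbered 3 did. The log2 difference was 3.83 ± 1.30 (unadjusted p 0.0200 by limma) and 5.53 without both libraries numbered 3. Against the limit of 3 reads a library, Gzma was at least 6.04-fold higher in the CD8 than in the CD4 library numbered 1 and at least 13.6-fold higher in those numbered 2. The gene lies at chr13:113093825-113100981, minus strand (mm10). With anti-PD-1 alone, all 6 libraries of the T cell sorts held 0 Gzma reads, which allows up to 3 reads in each. Of these, the CD4 libraries numbered 1 and 2 held only 0 and 1 Cd3e reads. The mitochondrial gene mt-Co2 also had 0 reads in the libraries numbered 1 and 2 of both sorts with that treatment. The cytotoxic list summed to 6841, 12651 and 4217 CPM in the CD8 libraries with anti-PD-1 alone and 11644, 12782 and 5924 with D18. The cause of the 0 Gzma reads was not tested.

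Nkg7, a granule membrane protein of killer lymphocytes, stood at 287, 225 and 114 in the CD8 libraries and 54.3, 23 and 148 in the CD4 libraries in normalised reads. The CD4 library numbered 3 lay above the CD8 library of the same number, so the sorts overlapped, and the difference was 1.75 ± 0.71 with all 6 libraries and 2.87 without both numbered 3. Gzmk (granzyme K) stood at 41.2, 36.7 and 13.7 in the CD8 libraries and 2.94, 17.3 and 12.5 in the CD4 libraries, with a difference of 1.53 ± 0.69 [2.29]. Prf1, which encodes the pore former perforin, had too few reads to be tested, with 6, 76 and 2 reads in the CD8 libraries and 0, 0 and 10 in the CD4 libraries. Both CD4 libraries that matched their label held none of it. Gzmb (granzyme B) was abundant in both sorts, at 199, 134 and 100.0 in the CD8 libraries and 76.3, 59.5 and 103 in the CD4 libraries, and differed by 0.83 ± 0.44 [1.33]. Cst7, an inhibitor of the proteases that activate granzymes, was higher in all 3 CD8 libraries than in any CD4 library, at 20.6, 25.5 and 13.7 in the CD8 libraries and 11.7, 5.76 and 12.5 in the CD4 libraries, and differed by 0.95 ± 0.45 [1.43]. Of the effector cytokine genes, Ifng (interferon-gamma) differed by 1.02 ± 0.80 [1.69] and Tnf by 0.58 ± 0.61 [0.93].

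The start regions of 4 of the genes on which this comparison turns are shown because 2 of them hold, and 2 lack, the letters TGTGGT, the core bound by RUNX factors, a family that includes the CD8-lineage factor RUNX3. Each runs from 250 bases before to 50 after the annotated start, 5′ to 3′ on the gene's strand, from RefSeq on GRCm38.p6. The RefSeq start is the GENCODE gene start in Cd8a and Gzma. In Nkg7 it lies inside the GENCODE gene, and in Tnfrsf4 it lies upstream, so that the region shown ends before the GENCODE start. Capitals mark the motif, written ACCACA where it lies on the other strand.
Cd8a promoter, chr6:71373177-71373476, plus strand: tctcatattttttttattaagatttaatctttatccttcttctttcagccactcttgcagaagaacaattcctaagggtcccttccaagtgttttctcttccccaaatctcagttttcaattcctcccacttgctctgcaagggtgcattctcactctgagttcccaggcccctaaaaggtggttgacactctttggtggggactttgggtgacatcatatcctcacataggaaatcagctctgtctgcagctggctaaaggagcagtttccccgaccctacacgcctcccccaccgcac
Gzma promoter, chr13:113100932-113101231, minus strand: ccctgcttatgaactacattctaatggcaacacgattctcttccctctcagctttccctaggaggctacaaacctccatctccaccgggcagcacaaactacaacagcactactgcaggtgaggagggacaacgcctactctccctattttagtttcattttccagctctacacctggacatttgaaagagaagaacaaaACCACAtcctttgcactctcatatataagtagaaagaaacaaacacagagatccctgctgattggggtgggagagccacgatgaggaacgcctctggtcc
Nkg7 promoter, chr7:43436888-43437187, plus strand: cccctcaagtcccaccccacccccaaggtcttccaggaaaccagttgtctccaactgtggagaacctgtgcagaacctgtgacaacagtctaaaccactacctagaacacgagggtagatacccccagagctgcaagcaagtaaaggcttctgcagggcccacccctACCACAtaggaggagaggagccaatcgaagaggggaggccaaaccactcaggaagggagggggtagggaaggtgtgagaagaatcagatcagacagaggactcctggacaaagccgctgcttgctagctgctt
Tnfrsf4 promoter, chr4:156013445-156013744, plus strand: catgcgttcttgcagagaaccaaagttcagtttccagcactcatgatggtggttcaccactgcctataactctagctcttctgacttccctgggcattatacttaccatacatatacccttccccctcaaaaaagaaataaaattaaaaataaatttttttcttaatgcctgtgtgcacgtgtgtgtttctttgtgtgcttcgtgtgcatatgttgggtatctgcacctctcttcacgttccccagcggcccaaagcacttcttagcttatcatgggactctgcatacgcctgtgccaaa
Both matches lie on the other strand, 1 in Gzma and 1 in Nkg7. Of the 12 genes that lead the CD8 side, 10 had a start region in the table and 4 of these held the motif on either strand. Of the 12 that lead the CD4 side, 10 had one and 1 held it. In all, 5506 of 32851 start regions of this length (16.8%) hold it. A match is a stretch of letters and no evidence of binding.

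Receptors shared with natural killer (NK) cells had mostly higher means in the CD8 sort, 3 of 4 [3 of 3] genes tested, with a median of 1.75 [3.25] and 0.99, 3.55 and -0.16 within the numbers. Klrk1 (NKG2D, an activating receptor for stress-induced ligands) stood at 28.9, 31.4 and 22.5 in the CD8 libraries and 2.94, 1.92 and 23.7 in the CD4 libraries, a difference of 2.11 ± 0.79 [3.25] (unadjusted p 0.0311 by limma). The CD8 libraries lay close together and the CD4 library numbered 3 stood with them, far above the other two. Klrd1 (CD94) differed by 2.05 ± 1.30 [3.38] and its partner Klrc1 (NKG2A) by 1.45 ± 0.80 [2.35]. Fcer1g, an adaptor chain that myeloid cells also express, was the 1 of 4 genes tested in that list with a lower mean in CD8, at -0.36 ± 1.45. It fell below the filter without both libraries numbered 3, so the list's bracketed count and median leave it out. Of the T cell chemokines, 4 of 5 [3 of 3] genes tested had the higher mean in CD8, but not in every number. The median was 0.81 [4.22] with all 6 libraries and 4.82, -0.23 and 0.036 within the numbers, and in the libraries numbered 2 the CD8 library was the higher in 2 of 5. Without both numbered 3, Cxcl16 (-2.78 and -0.23 in numbers 1 and 2) and Cxcl10 (1.76 and -1.30) fell below the filter. The bracketed count and median thus cover only 3 genes and are not comparable with those over 5. Ccl5 stood at 279, 52.5 and 80.0 in the CD8 libraries and 5.87, 5.76 and 112 in the CD4 libraries. It differed by 2.62 ± 1.19 with all 6 libraries and by 4.22 without both numbered 3. Ccl4 had 109, 40 and 67 reads in the CD8 libraries and 0, 2 and 86 in the CD4 libraries, and in the libraries numbered 1 it was at least 38.7-fold higher in CD8. Ccl3, a chemokine of the same cluster, went both ways, with a log2 difference of 4.82 in the libraries numbered 1 and -2.42 in those numbered 2. Xcl1, a chemokine that attracts cross-presenting dendritic cells, had 1 read each in the CD8 libraries numbered 2 and 3 and none elsewhere.

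**Figure D3:**
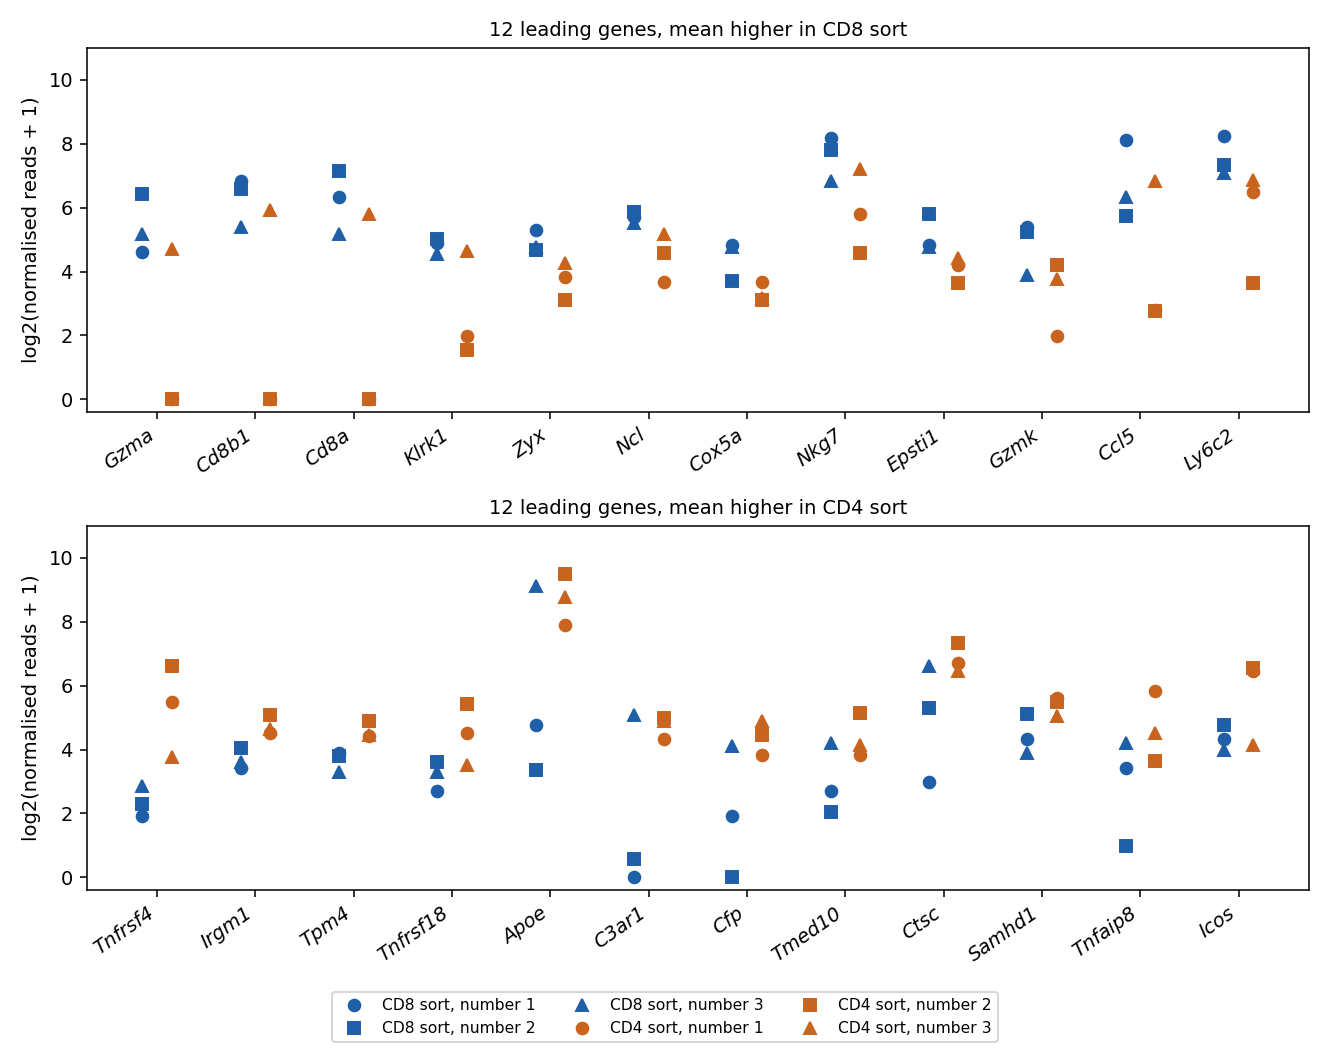
Log2(normalised reads + 1) of the 12 genes that lead each direction by the naming rule (1 point a library, CD8 sort in blue, CD4 sort in orange, number 1 as circle, 2 as square, 3 as triangle). On the CD8 side the orange triangle, the library labelled CD4 D18 replicate 3, lies with the blue points in Gzma, Cd8b1, Cd8a, Klrk1 and Ccl5, and on the CD4 side the blue triangle lies with the orange points in Apoe, C3ar1, Cfp and Ctsc.

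The gene with the smallest p of all was Tnfrsf4, which encodes the costimulatory receptor OX40, and it was higher in the CD4 sort. It stood at 2.75, 3.89 and 6.25 in the CD8 libraries and 44, 98 and 12.5 in the CD4 libraries in normalised reads. All 3 CD4 libraries lay above all 3 CD8 libraries, with the CD4 library numbered 3 the lowest of its sort. The log2 difference was -2.94 ± 0.73 [-3.90] (adjusted p 0.961 by limma, unadjusted p 0.00424), and within the numbers it was -3.59, -4.34 and -0.90. With the replicate block its unadjusted p was 0.000737 and its adjusted p by limma 0.584. The gene lies at chr4:156013843-156016612, plus strand (mm10). Tnfrsf18, the gene of the related receptor GITR, stood at 5.50, 11.2 and 8.75 in the CD8 libraries and 22, 42.3 and 10.5 in the CD4 libraries. The lowest CD4 library, again the one numbered 3, lay below the highest CD8 library, and the difference was -1.30 ± 0.56 [-1.76]. Icos, an inducible costimulator of the CD28 family, stood at 19.2, 26.5 and 15 in the CD8 libraries and 86.6, 92.2 and 16.5 in the CD4 libraries. The CD4 libraries numbered 1 and 2 lay above every CD8 library, the CD4 library numbered 3 did not, and the difference was -1.33 ± 0.69 with all 6 libraries and -1.87 without both numbered 3. Tnfrsf9 (4-1BB), an activation receptor of both classes, differed by -0.74 ± 0.72 [-1.005].

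Genes listed for regulatory T cells had few reads, and their summed level was higher in the CD4 libraries. Foxp3, the factor that defines these cells, had 0, 0 and 2 reads in the CD8 libraries and 3, 4 and 5 in the CD4 libraries. Ctla4 had 0, 36 and 2 reads in the CD8 libraries and 5, 10 and 6 in the CD4 libraries, and in the deep CD8 library numbered 2 that came to 135 CPM against 321 in the CD4 library of that number. Il2ra, the interleukin-2 receptor alpha chain, had 1, 10 and 3 reads in the CD8 libraries and 6, 7 and 10 in the CD4 libraries. Neither of the last 2 was confined to the CD4 sort. Of the 20 genes of the regulatory T cell list, 5 could be tested (Tnfrsf4, Tnfrsf18, Tnfrsf9, Tigit and Capg), and 5 of 5 [5 of 5] had the higher mean in CD4, with a median of -0.75 [-1.10] and -1.63, -1.79 and -0.073 within the numbers. The summed level of the whole list was 1487, 1779 and 1513 CPM in the CD8 libraries (1593 ± 162, mean ± SD, n = 3) and 3311, 7799 and 1865 in the CD4 libraries (4325 ± 3095). The groups did not overlap, and the two-sided exact permutation test gave p = 0.1, the smallest that 3 against 3 libraries allow. The list is not confined to T cells, as it summed to 1238, 358 and 2180 CPM in the DC libraries. Of these, the libraries numbered 1 and 2 held no Cd3e read. Macrophage genes were also higher in the CD4 libraries numbered 1 and 2, and their part in this sum was not tested. In such bulk samples, fewer cells of a type and less RNA per cell cannot be told apart. Izumo1r and Ikzf2, list members chosen here after their values were seen, had 0, 1 and 2 and 3, 2 and 1 reads in the CD8 libraries and 5, 10 and 6 and 9, 12 and 4 in the CD4 libraries. Cd40lg, the helper signal to B cells and dendritic cells, had no read in any of the 6 libraries. Of the helper lineage list, Cd5, a brake on receptor signalling, differed by -0.61 ± 0.57 [-0.85] and the transcription factor gene Bhlhe40 by -0.77 ± 0.81 [-1.12].

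The shared machinery of both classes had smaller differences. Of the T cell receptor list, 14 of 18 [13 of 18] genes tested had the higher mean in CD8, with a median of 0.39 [0.56] and 0.021, 0.82 and -0.029 within the numbers, and 0 had an unadjusted p under 0.05. The largest differences among the 4 genes of the list named by rule were in Cd3g (1.10 ± 0.70 [1.76]) and the constant region Trbc2 (0.83 ± 0.62 [1.30]), followed by Cd3d (0.72 ± 0.51 [1.39]) and Trbc1 (0.66 ± 0.47 [1.08]). In all 4 the difference was positive in the libraries numbered 1 and 2, and it was between -0.49 and 0.032 in those numbered 3. Trbc1 and Trbc2 are near-identical, and how reads that such copies share were counted was not found in the labels. Inhibitory receptors had no common direction, as 4 of 6 [4 of 6] genes tested had the higher mean in CD8, with a median of 0.16 [0.32]. Lag3, an inhibitory receptor that binds MHC class II, had 7, 143 and 8 reads in the CD8 libraries and 0, 3 and 14 in the CD4 libraries. All 3 CD8 libraries lay above all 3 CD4 libraries in normalised reads, by 1.97 ± 1.26 [2.94] on the log2 scale. Pdcd1, the target of the antibody, stood at 8.25, 30.6 and 6.25 in the CD8 libraries and 29.4, 3.84 and 12.5 in the CD4 libraries and differed by 0.031 ± 0.82 [0.55]. Its sign depended on the number, with -1.71, 2.71 and -0.90 within the libraries numbered 1, 2 and 3. Havcr2 (TIM-3) differed by 0.29 ± 0.71 [0.094], Tigit by -0.65 ± 0.60 [-0.88] and the activation-induced receptor gene Nr4a1 by 0.67 ± 1.08 [1.46].

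Surface genes of effector and memory T cells had mostly higher means in the CD8 sort. Of that list, 9 of 13 [12 of 13] genes tested had the higher mean in CD8, against 620 of 1045 [624 of 1023] over all genes. The list's median was 0.51 [0.92], and 0.33, 0.76 and -0.18 within the numbers. In the libraries numbered 3 the CD8 library was the higher in 4 of 13. Ly6c2, a surface protein of memory-type CD8 T cells and of monocytes, stood at 301, 161 and 134 in the CD8 libraries and 89.5, 11.5 and 116 in the CD4 libraries, and all 3 CD8 libraries lay above all 3 CD4 libraries. Its difference was 1.88 ± 0.87 [2.78] and its unadjusted p by limma was 0.0659 (0.0121 with the replicate block). Ly6c2 has a near-identical neighbour, so its reads may be shared. Lgals1 (galectin-1) differed by 1.03 ± 0.68 [1.49], Ctla2a by 0.84 ± 0.69 [1.10], the transcriptional regulator Id2 by 0.51 ± 0.43 [0.92] and Ms4a4b, a T cell surface gene, by 0.59 ± 0.47 [1.17]. Homing receptors were split, with 5 of 9 [5 of 9] higher in CD8 and a median of 0.057 [0.43]. Cxcr6, a chemokine receptor of tissue T cells, differed by 0.55 ± 0.60 [1.01], the integrin gene Itgal by 0.70 ± 0.47 [0.96], Cd44 by -0.64 ± 0.67 [-1.23] and the selectin ligand gene Selplg by 0.25 ± 0.47 [0.51]. The survival gene Bcl2 differed by 1.72 ± 1.25 [2.88], with 25, 46 and 6 reads in the CD8 libraries and 5, 0 and 17 in the CD4 libraries, and the interleukin-7 receptor gene Il7r by 0.54 ± 0.53 [1.00]. Runx3, the factor of the CD8 lineage, had 11, 20 and 9 reads in the CD8 libraries and 11, 1 and 17 in the CD4 libraries and differed by 0.31 ± 0.92.

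Interferon-response genes went in both directions. Of the interferon-gamma list, 5 of 13 [3 of 12] genes tested had the higher mean in CD8 and the median was -0.24 [-0.57]. Irgm1, an interferon-inducible GTPase, was higher in all 3 CD4 libraries, at 9.62, 15.6 and 11.2 in the CD8 libraries and 22, 32.7 and 23.7 in the CD4 libraries. Its difference was -1.05 ± 0.40 [-1.01], and within the numbers it was -1.12, -1.02 and -1.01, so it was about as large in the libraries numbered 3 as in the others. Serpina3g, a serine protease inhibitor, differed by -0.74 ± 0.62 [-0.66], and Nlrc5, the activator of MHC class I genes, by 0.35 ± 0.36 [0.35] with CD8 libraries all above CD4 libraries. Of the type I interferon list, 3 of 9 [3 of 9] had the higher mean in CD8, with a median of -0.27 [-0.33]. Within the numbers the median was 0.27, -1.14 and 0.13, so it was negative only in the libraries numbered 2. The 4 members with the smallest p were Zbp1, a sensor of nucleic acids (0.86 ± 0.42 [1.32]), Bst2 or tetherin (-0.73 ± 0.52 [-0.69]), Xaf1 (-0.71 ± 0.47 [-1.07]) and the tripartite-motif gene Trim30a (0.55 ± 0.37 [0.76]). MHC class I genes had the higher mean in the CD4 sort in 9 of 12 [9 of 12], with a median of -0.18 [-0.12]. H2-D1, a classical class I heavy chain, differed by -0.48 ± 0.37 [-0.51] and H2-Q6 by -0.44 ± 0.50 [-0.55], both with near-identical relatives.

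Proliferation, metabolism and stress genes showed small differences. Of the cell cycle genes, 5 of 5 [5 of 5] tested had the higher mean in CD8, with a median of 0.25 [0.49], but within the numbers the median was 1.32, -0.54 and 0.16. Pcna, the clamp of DNA polymerase, differed by 0.66 ± 0.38 [0.93] and the tubulin gene Tubb5 by 0.57 ± 0.45 [0.84], both with CD8 libraries above all CD4 libraries. Of glycolysis genes, 4 of 11 [4 of 11] had the higher mean in CD8, among them Gapdh (0.32 ± 0.36 [0.59]), while Pgk1 (-0.45 ± 0.39 [-0.47]) and Pgam1 (-0.59 ± 0.46 [-0.73]) had the lower mean. The list's median was -0.27 [-0.11]. Immediate-early genes, which are also induced while a tissue is taken apart, were split at 6 of 13 [8 of 13], with a median of -0.055 [0.12]. Egr1 differed by 0.82 ± 0.55 [1.16], Fos by -0.71 ± 0.67 [-1.29], Jun by -0.72 ± 0.52 [-0.91] and Nfkbia, an inhibitor of NF-kappaB, by -0.58 ± 0.39 [-0.59].

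Other leading genes of the CD8 side belong to no list. Zyx, a protein of cell adhesions, stood at 38.5, 24.3 and 26.2 in the CD8 libraries and 13.2, 7.68 and 18.5 in the CD4 libraries and differed by 1.17 ± 0.45 [1.57]. Ncl (nucleolin) differed by 1.21 ± 0.49 [1.70], Cox5a, a subunit of cytochrome c oxidase, by 1.12 ± 0.45 [0.93] and Epsti1, an interferon-induced gene, by 1.04 ± 0.46 [1.45]. In each of these 4 genes the 3 CD8 libraries lay above the 3 CD4 libraries, and 5 of the 12 leading genes of that side, Ly6c2 being the fifth, had such an order. On the CD4 side it was 3 of 12, Tnfrsf4, Irgm1 and Tpm4, a tropomyosin gene that differed by -0.94 ± 0.39 [-0.76]. Over all 1045 genes tested, such an order held in 3.54% on the CD8 side and 1.82% on the CD4 side. The leading genes were picked by the p-values of this same comparison, which favours such an order, so the counts are a description only. Tmed10, a cargo receptor between the endoplasmic reticulum and the Golgi, differed by -1.38 ± 0.65 [-2.05], Samhd1, an enzyme that breaks down nucleotides, by -0.95 ± 0.46 [-0.77] and Tnfaip8 by -1.79 ± 0.92 [-2.48].

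Genes of monocytes and macrophages had higher means in the CD4 sort, and both T cell sorts contained their transcripts. Of the 22 genes of that list, 15 passed the filter and 14 of these [12 of 13] had the higher mean in the CD4 sort, with a median of -1.41 [-2.26] and of -2.26, -1.92 and -0.023 within the numbers. Under the replicate block, 8 of 15 had an unadjusted p under 0.05 by limma, against 83 of 1045 (7.94%) over all genes tested. Without the block it was 0 of 15. The list summed to 2275, 5466 and 27823 CPM in the CD8 libraries, 8840, 30395 and 29171 in the CD4 libraries and 35522, 16115 and 31076 in the DC libraries. The CD8 libraries numbered 1 and 2 were thus the lowest of the 9, and the CD8 library numbered 3 reached the level of the CD4 libraries numbered 2 and 3. Of the defining genes, Lyz2 (lysozyme) had 11, 241 and 567 reads in the CD8 libraries and 72, 117 and 1172 in the CD4 libraries and differed by -1.59 ± 1.38 [-2.26]. Apoe, a lipid carrier of tumour macrophages, stood at 26.1, 9.24 and 555 in the CD8 libraries and 239, 716 and 440.3 in the CD4 libraries. Its difference was -2.98 ± 1.37 with all 6 libraries and -4.57 without both numbered 3. C3ar1, a complement receptor, had 0, 2 and 26 reads in the CD8 libraries and 13, 16 and 44 in the CD4 libraries and differed by -2.86 ± 1.32 [-4.32], and Cfp, the complement protein properdin, by -2.40 ± 1.12. Ctsc, which encodes the cathepsin that activates granzymes and is high in myeloid cells too, differed by -1.87 ± 0.88 [-2.81]. Every CD4-side difference above stands beside this higher level of macrophage reads in the CD4 libraries numbered 1 and 2, whose part in it was not tested. Tnfrsf4, Tnfrsf18 and Icos had 0 reads in the DC libraries numbered 1 and 2, where 3 reads come to 15.7 and 269 CPM, so low levels were not detectable in the second. In the DC library numbered 3 they had 21, 34 and 43 reads.

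MHC class II genes had no common direction. Of those tested, 4 of 6 [4 of 6] had the higher mean in CD8, with a median of 0.29 [0.55] and the list summed to 1827, 6858 and 11911 CPM in the CD8 and 2386, 9083 and 13402 in the CD4 libraries. H2-Aa stood at 11, 84.8 and 150.0 in the CD8 libraries and 14.7, 30.7 and 159 in the CD4 libraries and differed by 0.32 ± 1.16 [0.59], and Cd74, the invariant chain, by 0.27 ± 1.04 [0.52]. In both sorts, the summed class II CPM was lowest in the library numbered 1 and highest in the library numbered 3. The gene lists of B cells, dendritic cells, neutrophils, NK cells and tumour or stromal cells had at most 1 gene tested each. In the NK cell list that gene was Gzma, which CD8 T cells also express. Mitochondrially encoded genes took 8.34, 5.43 and 25.1% of reads in the CD8 libraries and 26.2, 2.85 and 22.1% in the CD4 libraries. The share was lowest in the CD4 library numbered 2 and, with the lower value in CD8, differed most within the libraries numbered 1. The list's median was -0.30 [-0.49], and -2.29, 1.21 and 0.20 within the numbers, and its part in the differences above was not tested.

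**Figure D4:**
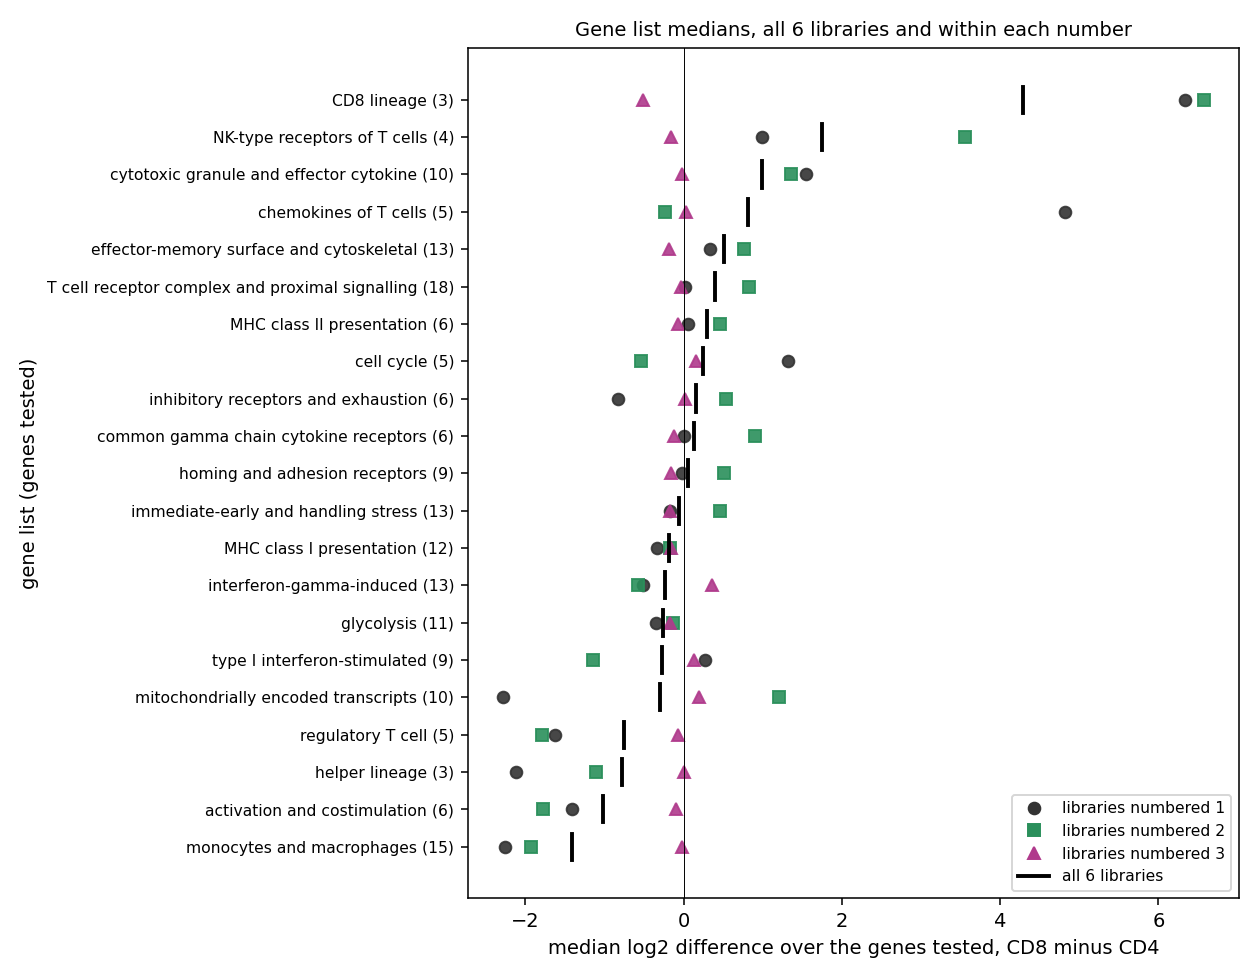
Median log2 difference, CD8 minus CD4, over the genes tested of each list with at least 3 (number tested in brackets), for all 6 libraries (black line) and within the libraries numbered 1 (circle), 2 (square) and 3 (triangle). The triangles lie between -0.51 and 0.36 in every list, also where circles and squares reach 6.57 or -2.29.

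Set side by side, the same-numbered libraries show where the sorts differed most. In the libraries numbered 1, 123 of 1045 genes (11.8%) lay at least 4-fold apart, and in those numbered 2, 117 (11.2%). In the libraries numbered 3 it was 2 genes (0.191%). Across genes, the differences of the libraries numbered 1 and 2 had a Spearman correlation of 0.33, and those of the libraries numbered 3 had -0.06 and -0.08 with them. Genes are not independent replicates, and all 6 libraries share 1 normalisation, so these are descriptions. A total of 24 genes lay at least 4-fold apart in the same direction in numbers 1 and 2, which is 19.5% of those of number 1 and 20.5% of those of number 2. They were picked by these values, so the values are a description with no test. On the CD8 side there were 11 (1.05%), namely Cd8a (6.34 and 7.16 in numbers 1 and 2), Cd8b1 (6.85 and 6.57), Gzma (4.61 and 6.43), Ccl5 (5.35 and 2.98), Jaml (4.83 and 4.40), Lag3 (3.41 and 2.40), Klrk1 (2.92 and 3.47), Nkg7 (2.38 and 3.23), Bcl2 (2.08 and 3.61), the spliceosome gene Snrpg (3.11 and 2.14) and Ndufb7, a subunit of respiratory complex I (2.78 and 2.92). Jaml, an adhesion molecule that costimulates T cells, had 20, 83 and 12 reads in the CD8 libraries and 0, 0 and 24 in the CD4 libraries. It repeated the pattern of the coreceptor genes, with no read in the CD4 libraries numbered 1 and 2 and reads in the one numbered 3.

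On the CD4 side there were 13 genes (1.24%). Tnfrsf4 (-3.59 and -4.34) was the only T cell costimulatory receptor among them. Of the others, 5 belong to the monocyte and macrophage list, namely Apoe (-3.15 and -6.13), C3ar1 (-4.33 and -4.42), the Fc receptor gene Fcgr1 (-4.22 and -3.47), the complement gene C1qb (-2.28 and -2.52) and the lysosomal growth factor gene Grn (-2.19 and -2.00). The remaining genes, outside the list, were Ctsc (-3.72 and -2.03), Ctsl, a lysosomal protease (-3.06 and -3.03), Fcgr4, an Fc receptor (-2.31 and -2.26), Ly86, a partner of a Toll-like receptor homologue (-3.67 and -2.53), the monocyte chemokine gene Ccl7 (-3.50 and -4.59), the transglutaminase gene Tgm2 (-3.28 and -2.78) and Tnfaip8 (-2.42 and -2.67). None of the 11 CD8-side genes is on the macrophage list. A further 5 genes lay at least 4-fold apart in opposite directions in the 2 numbers. They were Ccl3, the replication gene Pclaf (2.99 and -3.12), Sipa1 (-2.42 and 2.06), the chemokine gene Cxcl2 (-4.22 and 2.70) and mt-Nd6 (-2.15 and 2.44). Many of these genes had few reads, and with 10 in place of 1 as the pseudocount 3 genes remained on the CD8 side (Cd8a, Cd8b1 and Nkg7) and 2 on the CD4 side (Apoe and Tnfrsf4).

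**Figure D5:**
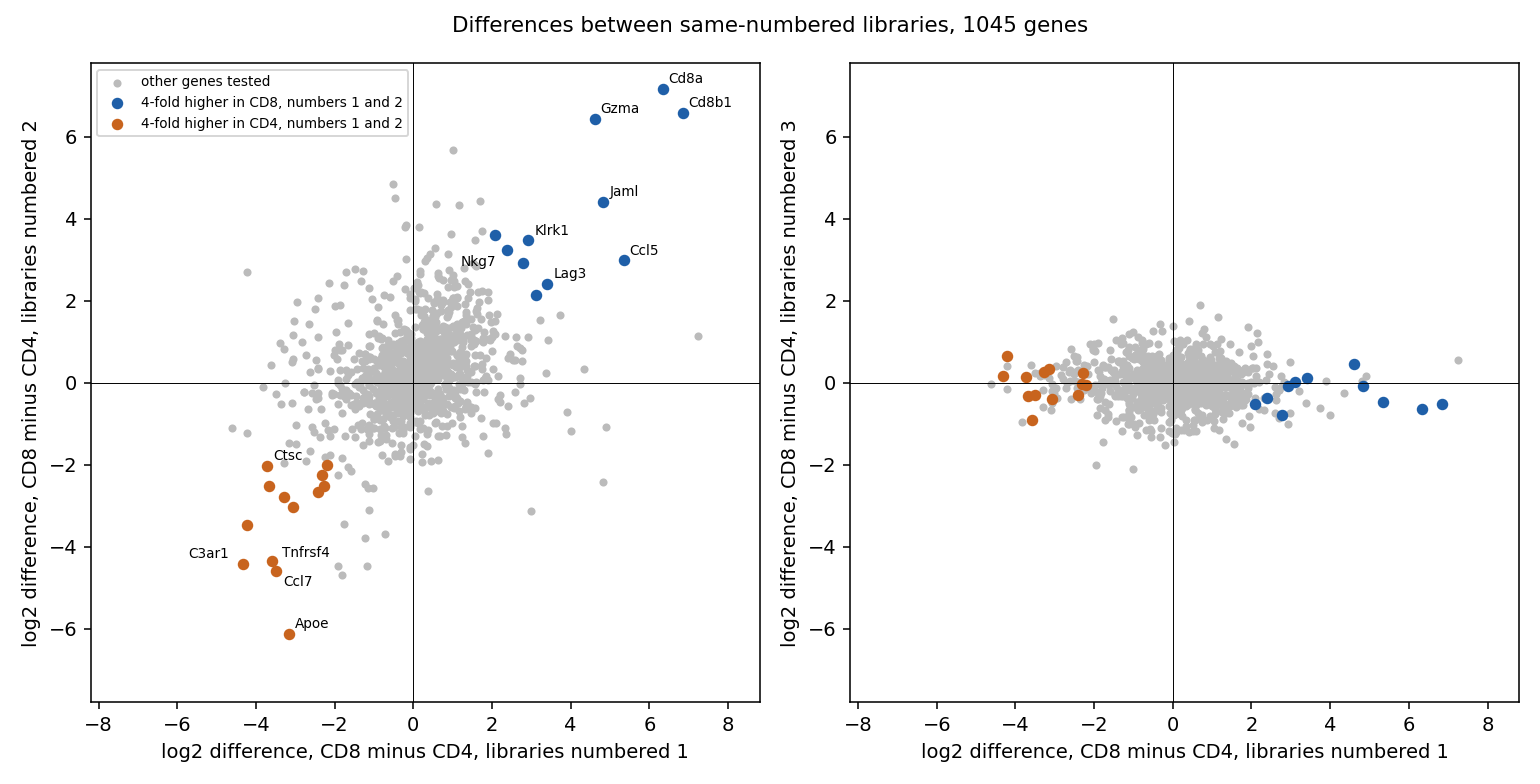
Log2 difference, CD8 minus CD4, of each of 1045 genes in the libraries numbered 1 (horizontal axes) against those numbered 2 (left) and 3 (right), with the genes at least 4-fold apart in numbers 1 and 2 in blue (11, higher in CD8) and orange (13, higher in CD4). The coloured genes reach 7.16 and -6.13 in number 2 and lie between -0.90 and 0.65 in number 3.

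Whether the difference between the sorts was the same with anti-PD-1 alone was tested as an interaction over 12 T cell libraries. By limma, 0 of 1211 genes passed (smallest adjusted p 0.970), and 27 (2.23%) had an unadjusted p under 0.05. With limma-voom, 0 genes passed as well and 96 had an unadjusted p under 0.05. The CD4 libraries with anti-PD-1 alone numbered 1 and 2 held 0 and 1 Cd3e reads, so these went against their label as T cells, and mt-Co2 had 0 reads in the anti-PD-1 libraries numbered 1 and 2 of both sorts against 1 to 47 in the 6 D18 libraries. Without those CD4 libraries 0 of 1239 genes passed by limma and 16 had an unadjusted p under 0.05. The 5 named genes with the smallest p were Tsn, the gene of the nucleic acid binding protein translin (interaction 2.80 ± 0.85), Zbp1 (1.72 ± 0.55), the RNA-binding protein gene Ewsr1 (-2.56 ± 0.85), the leukotriene enzyme gene Lta4h (-3.66 ± 1.27) and Tpm4 (-1.83 ± 0.64). For Gzma, read in no T cell library with anti-PD-1 alone, it was 3.94 ± 2.68 (unadjusted p 0.167 by limma), and for Tnfrsf4 it was -2.76 ± 1.78. The libraries with anti-PD-1 alone numbered 3 are 1 CD8 and 1 CD4 library that share no sample with the D18 comparison, and they can be set beside it with no test. There Tnfrsf4 had 19 reads in CD8 and 119 in CD4, Tnfrsf18 20 and 113, and Icos 9 and 48. Foxp3 had 4 and 30, Cd4 4 and 20, and Cd8a 45 and 15, in libraries of 143466 and 118730 reads. The chi-square per degree of freedom of that pair was 4.01, and the CD8 library of it came to 1.38 with the DC library of the same number and treatment. In that pair Tnfrsf4, Tnfrsf18, Icos and Foxp3 had the order seen with D18, and the following groups did not. The cytotoxic list summed to 4217 and 5382 CPM in CD8 and CD4, against D18 means of 10116 and 5053. The T cell receptor list summed to 2928 and 6746 CPM, against 9035 and 6799, and the macrophage list to 46792 and 26607, against 11855 and 22802. All 3 lists had the opposite order there. The CD8 library of that pair thus had the lower level of T cell receptor genes. The part of that in the order of Tnfrsf4, Tnfrsf18, Icos and Foxp3 was not tested.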

How the data were processed

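Per the labels, cells sorted by flow cytometry went into lysis buffer and became Smart-Seq2 libraries. Per the submitters' processing notes, the authors used STAR 2.4.0, HTSeq 0.6.1 and DESeq2 with mm10, and the authors deposited log2 values in 1 table per sort of 46983 genes. Which transform they used is not stated in the labels. Values sit on a minimum per table, and u = sinh(ln2 × (value − minimum) / 2) squared, divided by the smallest u above 0 of a library, gave whole numbers (within 0.001) for 100% of values. These reads were divided by median-ratio size factors over 2891 genes read in all 6 libraries. Symbols and positions (GENCODE vM21, mm10) matched 46488 gene IDs (98.9%).

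For the 1045 genes averaging at least 10 normalised reads, limma 3.58.1 (trend, robust; R 4.3.3) was run on log2(normalised reads + 1), with Benjamini-Hochberg adjustment against 0.05, and the code was tested on simulated data. List sums used an exact permutation test. The interaction used 12 T cell libraries. Same-numbered libraries of the sorts deviated together (correlations 0.39, 0.55 and 0.38, others -0.47 to 0.10), so the replicate block is given too. Named were, per direction, the genes past the threshold without overlap, filled to 12 by smallest p among genes averaging 20 or more in the higher sort, up to 4 genes per biology list, a fixed set of immune genes, and the 5 leading genes of the interaction. Genes at least 4-fold apart in 2 numbers were named after their values were seen. The members and lists were chosen with earlier results of these data known. Alternatives were other normalisations, voom, filters, pseudocounts, the block, 1 fit of 12 libraries and omitted libraries. Tables were made with pandas 2.3.3 and numpy 2.4.6, permutation and chi-square tests with scipy 1.17.1 and plots with matplotlib 3.10.9, in Python 3.11.15.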

Additional observations from a re-analysis of the deposited data

How the results depend on the processing

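The count of genes called was 0 of 1045 in the main test and 0 in each alternative but 2. It was 3 with no filter on low values, and it ranged from 0 to 2 when each library was left out in turn, with 2 only without the library labelled CD4 D18 replicate 3. The replicate block left 0 calls and changed no other call. The interaction had 0 calls under its 3 alternatives. Of 94 tested genes named above, 77 kept the sign of their difference under all 16 alternatives that could be computed for them. In 1 fit of 12 T cell libraries, these differences had the opposite sign: Pdcd1 -0.024. Without both libraries numbered 3 they were Pclaf -0.0100. With limma-voom they were Tigit 0.33, Bhlhe40 0.73, Cd44 0.19, H2-Aa -0.49, Cd74 -0.33, Lta4h 0.52, Pclaf -2.12, Sipa1 0.36, mt-Nd6 -0.075. With a pseudocount of 0.1 they were Pclaf -0.81. With a pseudocount of 10 they were Pdcd1 -0.0088, mt-Nd6 -0.085. With quantile normalisation they were Pdcd1 -0.33, mt-Nd6 -0.083. With reads scaled to library totals they were Pclaf -0.075. With each library left out in turn, the differences that changed sign ranged over Ccl3 -0.25 to 2.40, Cd44 -0.99 to 0.052, Cd74 -0.64 to 1.15, Cxcl2 -1.47 to 1.13, Fcer1g -1.83 to 0.77, H2-Aa -0.41 to 1.40, Havcr2 -0.064 to 0.71, mt-Nd6 -1.43 to 1.14, Nr4a1 -0.15 to 1.32, Pclaf -0.32 to 0.40, Pdcd1 -0.67 to 0.67, Runx3 -0.48 to 0.21, Selplg -0.11 to 0.54, Sipa1 -0.68 to 0.59. The cause was not tested. Of 21 gene lists with 3 or more genes tested, the median kept its sign in 12 and changed it under at least 1 alternative in 9 (MHC class II presentation, chemokines of T cells, common gamma chain cytokine receptors, glycolysis, homing and adhesion receptors, immediate-early and handling stress, interferon-gamma-induced, mitochondrially encoded transcripts, type I interferon-stimulated). The genes at least 4-fold apart in numbers 1 and 2 numbered 11 on the CD8 and 13 on the CD4 side. With the pseudocount of 10 they were 3 and 2, and with a mean of at least 20 normalised reads 5 and 9. With 0.1 as the pseudocount they were 13 and 18. These alternatives of the 4-fold counts were chosen after seeing the data. The CD4 library numbered 2 had the fewest reads, 31156, so that 3 reads there came to 96.3 CPM, and lower levels were not detectable in it.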
